A study of Mus musculus with 2 samples.

Results

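Hba-a1, Hba-a2, Hba-x, Hbb-bs, Hbb-bt, Hbb-y and Hbb-bh1 encode globin chains of mouse haemoglobin, and Alas2 encodes the erythroid form of the first enzyme of haem synthesis. These 8 genes were taken by symbol from the 32285 genes of the count table, and all 8 had UMIs. A UMI, or unique molecular identifier, counts 1 captured RNA molecule by its 3′ end, so the levels below were not scaled by gene length. The cells came from trunks and limbs of E14 mouse embryos whose heads and viscera had been removed, and all had been sorted for tdTomato, a red fluorescent protein switched on by Cre recombinase under the Myf5 locus, which is active in muscle precursors and in other embryonic lineages. There were 2 droplet libraries, 1 titled SRSF2f/f/Myf5-Cre/tdT and 1 titled SRSF2f/w/Myf5-Cre/tdT, named here the f/f-labelled and the f/w-labelled library. Srsf2, a splicing factor gene, is floxed on both alleles in the first genotype and on 1 allele in the second, and every cell sorted carried the Cre and the reporter in either genotype. Each label had 1 library, described as 1 sample from an embryo, and whether embryos were pooled is not given in the sources used here.

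The titles do not match what the libraries hold, so no difference between the libraries is read as an effect of genotype. Srsf2 stood at 217 CPM (counts per 1000000 UMIs; 95% exact Poisson interval 215 to 219) in the f/f-labelled library and at 152 CPM (150 to 154) in the f/w-labelled one. Barcodes with myogenic markers made up 16.2% and 1.07% of them, in that order, and the run summaries stored with the libraries were named WT for the f/f-labelled and KO for the f/w-labelled library. The f/f-labelled library had 15268 barcodes and 156093779 UMIs, and the f/w-labelled one had 12498 barcodes and 128116615 UMIs. With 1 library per label there is no replicate error and no test between labels. Intervals are 95% exact intervals and cover counting error only. Values are given in the order f/f-labelled, then f/w-labelled, where no library is named. The 2 libraries shared 74 barcode sequences, of which 0 in the first and 3 in the second library were at 10% globin or more.

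Haemoglobin is a tetramer of alpha-type and beta-type chains around haem. In the mouse, the first red cells arise in the yolk sac and carry the embryonic chains zeta (Hba-x), epsilon-y (Hbb-y) and beta-h1 (Hbb-bh1) beside adult alpha chains. They circulate and lose their nuclei in the bloodstream, while red cells made later by the foetal liver carry the adult chains of Hba-a1, Hba-a2, Hbb-bs and Hbb-bt. The genes lie in 2 clusters, each with its embryonic genes ahead of the adult ones in the direction of reading. On GRCm38, with positions from the GENCODE annotation, the alpha-type cluster on the plus strand of chromosome 11 runs from Hba-x (chr11:32276400-32278116) through Hba-a1 (chr11:32283511-32284465) to Hba-a2 (chr11:32296489-32297298). The beta-type cluster on the minus strand of chromosome 7 runs from Hbb-y (chr7:103851749-103853216) through Hbb-bh1 (chr7:103841637-103843164) and Hbb-bs (chr7:103826534-103828096) to Hbb-bt (chr7:103812524-103813996). Alas2 lies apart from both, at chrX:150547375-150570638 on the plus strand.

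To set the embryonic and adult genes side by side, the 120 bases before the RefSeq start are shown for 6 of the 7 members that RefSeq's table held, on GRCm38.p6 and 5′ to 3′. Capitals mark, on either strand, the motifs CACCC (known as a site of Klf factors), CCAAT (known as a promoter box), GATAA (known as a site of Gata factors) and TATAA (known as the TATA box). The regions are chr11:32283552-32283671 and chr11:32276480-32276599 on the plus strand for Hba-a1 and Hba-x, chr7:103827929-103828048, chr7:103813924-103814043 and chr7:103853208-103853327 on the minus strand for Hbb-bs, Hbb-bt and Hbb-y, and chrX:150547297-150547416 on the plus strand for Alas2.
Hba-a1: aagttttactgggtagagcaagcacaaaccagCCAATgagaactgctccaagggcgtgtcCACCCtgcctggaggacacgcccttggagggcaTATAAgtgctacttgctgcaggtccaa
Hba-x: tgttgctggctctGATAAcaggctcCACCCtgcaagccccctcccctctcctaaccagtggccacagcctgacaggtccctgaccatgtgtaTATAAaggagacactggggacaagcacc
Hbb-bs: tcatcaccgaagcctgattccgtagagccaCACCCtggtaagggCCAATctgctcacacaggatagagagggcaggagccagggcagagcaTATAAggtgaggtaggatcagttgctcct
Hbb-bt: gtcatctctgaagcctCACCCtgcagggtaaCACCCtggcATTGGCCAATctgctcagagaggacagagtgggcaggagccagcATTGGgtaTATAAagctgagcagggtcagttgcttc
Hbb-y: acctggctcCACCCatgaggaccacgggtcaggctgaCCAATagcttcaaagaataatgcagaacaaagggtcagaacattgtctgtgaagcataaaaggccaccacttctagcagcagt
Alas2: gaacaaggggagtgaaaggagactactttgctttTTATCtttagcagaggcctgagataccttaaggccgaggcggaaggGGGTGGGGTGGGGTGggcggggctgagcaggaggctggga
On all windows of this length before a RefSeq start, 32851 in number, CACCC stood in 31.7%, CCAAT in 21.3%, GATAA in 10.5%, TATAA in 11.8% and all 4 in 0.0700%. CACCC was in all 6 windows printed. The TATAA of Hba-a1, Hbb-bs, Hbb-bt and Hba-x began 27 to 29 bases before the start, and the Hbb-y and Alas2 windows held none. CCAAT was in the 4 windows of Hba-a1, Hbb-bs, Hbb-bt and Hbb-y and not in those of Hba-x or Alas2, which were the 2 with GATAA. The capitals in the Alas2 window are CACCC and GATAA read from the other strand. These are matches of letters only, and no binding was measured.

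The adult copies resemble each other closely, which bears on how their UMIs were split. Hba-a1 and Hba-a2 differed at 1 of 429 coding bases and at 0 of 74 bases of the 3′ untranslated part, and their windows before the start shared a run of 117 bases, so that of Hba-a2 is not printed. Hbb-bs and Hbb-bt differed at 1 of 444 coding bases but were only 72.9% identical over the 3′ untranslated part. The embryonic genes stood further off. Hbb-y and Hbb-bh1 were 76.4% identical over the coding bases, Hbb-bs and Hbb-y 74.3%, and Hba-a1 and Hba-x 68.0%. The split between Hba-a1 and Hba-a2 is therefore uncertain. How reads that fit both were counted was not examined, so their sum and the alpha-type shares below are uncertain too. That between Hbb-bs and Hbb-bt depends in part on how many reads cover the 3′ untranslated part, which was not examined.

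By UMIs counted, adult beta globin led. Hbb-bs had 559493 UMIs, or 3584 CPM, in the f/f-labelled library and 769919 UMIs, or 6010 CPM, in the f/w-labelled one. Hbb-bt followed at 1572 and 2370 CPM, Hba-a1 at 1331 and 2089 CPM, and Hba-a2 at 1082 and 1626 CPM. That order was the same in both libraries. Each step in it was larger than the counting intervals of its neighbours. The 7 globins took 0.775% of all UMIs in the f/f-labelled library and 1.23% in the f/w-labelled one.

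The embryonic genes were at far lower levels. Hbb-y had 146 CPM (144 to 148) and 151 CPM (149 to 153). Hba-x had 31.3 CPM (30.4 to 32.1) and 56.3 CPM (55.1 to 57.7), and Hbb-bh1 had 63 UMIs, or 0.404 CPM (0.310 to 0.516), and 324 UMIs, or 2.53 CPM (2.26 to 2.82). Together these 3 genes made up 2.29% and 1.70% of the globin UMIs. Alas2, an enzyme rather than a carrier protein, had 872 UMIs, or 5.59 CPM (5.22 to 5.97), and 1167 UMIs, or 9.11 CPM (8.59 to 9.65).

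All 8 genes were at a higher level in the f/w-labelled library, by a median of 0.68 on the log2 scale, where the median over all 14556 genes with at least 200 UMIs was a log2 ratio of -0.02, f/f-labelled over f/w-labelled. Hbb-bh1 alone was past 2-fold, at a log2 ratio of -2.65 (-3.06 to -2.25). Over all these genes, 6.51% were past 2-fold lower and 1.77% past 2-fold higher in the f/f-labelled library. The adult globins and Alas2 lay between -0.75 (Hbb-bs) and -0.59 (Hba-a2 and Hbb-bt). Hbb-y had the ratio nearest to 0, at -0.05 (-0.07 to -0.02). Fewer red cells and less globin RNA per red cell cannot be told apart in these library sums, which is why barcodes were divided by their globin content.

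A few barcodes held most of the embryonic globin, and the direction for Hbb-y turned when 1 barcode was left out of 1 library only. The highest barcode had 6846 of the 22782 Hbb-y UMIs of the f/f-labelled library (30.1%) and 4683 of the 19310 of the f/w-labelled one (24.3%). Without the highest barcode of the f/w-labelled library, the Hbb-y ratio turned to 0.35, and without that of the f/f-labelled library it went to -0.56. The highest barcodes held 29.2% and 29.6% of Hba-x and 42.9% and 53.4% of Hbb-bh1. Without those of the f/w-labelled library the Hba-x ratio went to -0.34 and that of Hbb-bh1 to -1.55. Without those of the f/f-labelled library they went to -1.35 and -3.45. Leaving out the highest barcode of 1 library alone moves a ratio in a known direction. Without the highest barcode of each library, Hbb-y was at -0.16 (-0.19 to -0.13), Hba-x at -0.84 and Hbb-bh1 at -2.35. No adult globin had more than 1.94% of its UMIs in 1 barcode.

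Barcodes were placed in 4 bins by the share of their UMIs that came from the 7 globins, so the globin level itself differs between bins by construction and is no result. Below 1% lay 15099 and 12273 barcodes, or 98.9% and 98.2% of each library. Between 1 and 10% lay 7 and 27, between 10 and 30% lay 20 and 36, and at 30% or more lay 142 (0.930%, 0.784 to 1.10) and 162 (1.30%, 1.11 to 1.51). The removal of the viscera and the tdTomato gate set which red cells could be collected, so these are not shares of the embryo's blood. The barcodes nearest to the 30% limit were at 28.8% and 30.1% in the f/f-labelled and at 28.3% and 31.4% in the f/w-labelled library. Nearest to the 10% limit they were at 9.56% and 10.4%, and at 9.88% and 10.0%. The top bin had few genes per barcode, with a median of 454 and 399, against 2823 and 2591 below 1% and 4730 and 4710 between 10 and 30%. The middle bins were thus rich in genes, and their median of 25253 and 31065 UMIs between 10 and 30% was above the 9059 and 9667 of the top bin.

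The top bin held red cell genes outside the globins, and few or no UMIs of some regulators of red cell precursors. Slc4a1, the band 3 anion exchanger, had 254 and 130 CPM of non-globin UMIs there and was found in 24.6% and 20.4% of the barcodes, against 0.0662% and 0.0570% of those below 1%. Gata1, the transcription factor that drives the erythroid programme, had 0 UMIs in both libraries, which allows up to 11.2 and 7.77 CPM (3 counts of the non-globin UMIs). Epor, the erythropoietin receptor, also had 0. Below 1% globin Gata1 stood at 0.149 and 0.345 CPM and Epor at 0.896 and 0.601, so these zeros cannot show a lower level. Klf1, the activator of adult beta globin, had 3 and 2 UMIs, at a log2 ratio of 4.66 (2.35 to 6.27) and 4.01 (0.92 to 5.96) over barcodes below 1%. Endothelial genes were in the bin as well, with Cdh5 at a log2 ratio of 2.19 and 1.14, Kdr at 1.29 and 1.31 and Pecam1 at 0.48 and 1.43. The 16 and 22 barcodes with 1000 genes or more, of which 12 and 16 had markers of another cell type, held 144149 of the 267878 and 271075 of the 385883 non-globin UMIs. The part of other cells in these barcodes was not tested. The barcodes of the top bin are called red cell barcodes here.

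**Figure D1:**
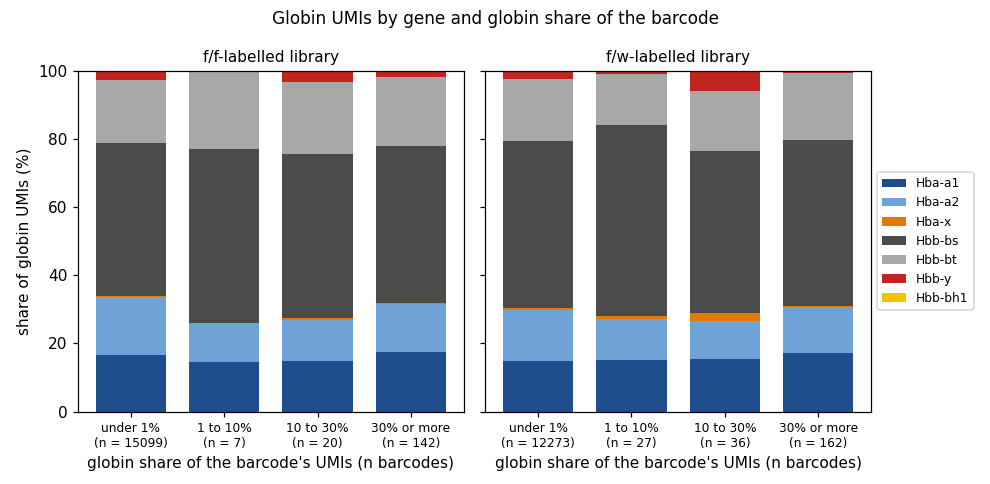
Share of the globin UMIs (percent, vertical axis) that each of the 7 globin genes took in the barcodes of each globin bin (horizontal axis, with the number of barcodes), 1 panel per library. Adult genes fill most of every bar, and the embryonic share is highest between 10 and 30% globin, at 4.13% and 8.37%.

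The proportions among the globins were alike in the red cell barcodes of both libraries, apart from the embryonic share. Alpha-type genes gave 32.0% and 31.0% of globin UMIs. Hbb-bt gave 30.5% and 28.7% of the adult beta UMIs, and Hba-a2 gave 44.8% and 43.9% of the adult alpha UMIs. The embryonic genes gave 2.12% (2.10 to 2.15) of the globin UMIs in the f/f-labelled and 0.783% (0.769 to 0.798) in the f/w-labelled library, and 4.13% and 8.37% between 10 and 30% globin. As shares of the beta-type UMIs, Hbb-y and Hbb-bh1 gave 2.58% and 0.879% in the top bin. As a share of the alpha-type UMIs, Hba-x gave 1.15% and 0.570%. The f/f-labelled library had the larger embryonic share in the top bin and the f/w-labelled one in the bin below it, and the order in the top bin rested on 8 and 4 barcodes. Without barcodes of 1000 genes or more, the top bin's embryonic share was 2.37% and 0.428%.

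Red cell barcodes fell into a group with mainly embryonic and a group with almost only adult beta globin, with none between. In the f/f-labelled library, 8 of 142 had 85.7% to 94.0% of their beta-type UMIs from Hbb-y and Hbb-bh1, and the highest of the other 134 had 0.0693%. In the f/w-labelled library, 4 of 162 had 77.4% to 97.6%, and the highest of the other 158 had 1.21%. No barcode of that bin stood between 2% and 50%. A limit of 50% was used to call barcodes embryonic or adult. The same gap was seen between 10 and 30% globin, where 3 of 20 and 7 of 36 barcodes were embryonic and 0 stood between 2% and 50%. Between 1 and 10%, 1 of 7 and 3 of 27 were embryonic, and 2 of the f/w-labelled barcodes stood in the gap, the higher at 9.38%.

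**Figure D2:**
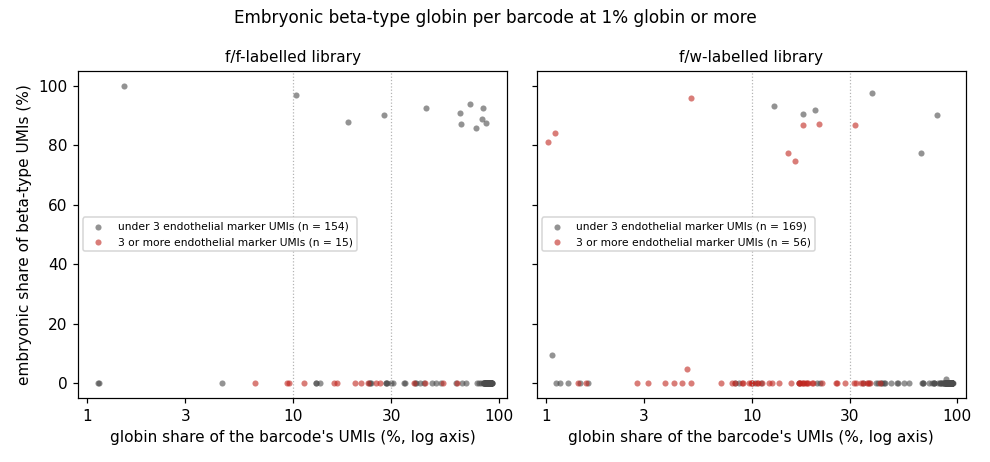
Share of beta-type UMIs from Hbb-y and Hbb-bh1 (percent, vertical axis) against the globin share of the barcode (percent, log axis), 1 point per barcode at 1% globin or more and 1 panel per library, with barcodes of 3 or more endothelial marker UMIs in red. Points at 10% globin or more lie below 2% or above 50% in both libraries, with 11 above 50% in each.

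At 10% globin or more, 11 of 162 barcodes (6.79%, 3.44 to 11.8) and 11 of 198 (5.56%, 2.81 to 9.72) were embryonic, and these intervals overlap. The 11 barcodes held 97.7% and 95.9% of all Hbb-y UMIs of their library, and 98.1% and 91.9% of all Hba-x UMIs. Their Hbb-y counts ran from 109 to 6846 and from 56 to 4683 UMIs, and their Hba-x counts from 40 to 1424 and from 15 to 2139. In the adult barcodes Hbb-y was at 0 in 140 of 151 and 180 of 187, and Hba-x in 149 of 151 and 180 of 187. The class was set by Hbb-y and Hbb-bh1, so the Hbb-y values follow in part from that choice, while Hba-x did not enter it. The zeta and epsilon-y genes were thus found together and in the same few barcodes.

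The embryonic barcodes of the 2 libraries differed in what else they held. In the f/f-labelled library 9 of 11 had under 1000 genes and 0 had endothelial markers, and in the f/w-labelled library 4 of 11 had under 1000 genes and 5 had endothelial markers. Of the 11, 2 and 7 had 2000 genes or more. Whether a second cell shared these droplets was not tested, and no doublet caller was run.

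Hbb-bh1, the first beta-type gene to be silenced, was rare even there. It was found in 10 and 22 barcodes in all. In the f/f-labelled library 27, 23 and 5 of its 63 UMIs came from 3 barcodes that also held Hba-x and Hbb-y. In the f/w-labelled library 173 of 324 UMIs came from 1 barcode with 2139 Hba-x and 2650 Hbb-y UMIs and 25 UMIs of endothelial markers. A further 80 UMIs (24.7%) came from a barcode with 0 Hba-x and 0 Hbb-y UMIs, which was otherwise adult, with 4731 Hbb-bs and 13 Alas2 UMIs and 88.0% globin. That barcode was singled out after its values were seen. The reads behind its Hbb-bh1 UMIs were not analysed here.

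Embryonic barcodes also held adult alpha UMIs, and some adult beta UMIs. The class was set by the beta-type UMIs, so the Hbb-y and adult beta shares below follow in part from that choice. The Hba-x and adult alpha UMIs did not enter it. Summed over the embryonic barcodes at 30% globin or more, Hbb-y gave 53.9% and 46.8% of globin UMIs, Hba-a1 17.9% and 20.6%, Hba-x 11.3% and 13.7%, and Hba-a2 10.3% and 10.9%. Hbb-bt gave 3.88% and 5.39% and Hbb-bs 2.64% and 2.49%. In the adult barcodes, Hbb-bs gave 47.5% and 49.4%, Hbb-bt 20.8% and 19.8%, Hba-a1 17.4% and 17.2%, and Hba-a2 14.3% and 13.5%. Over those 134 and 158 adult barcodes, Hbb-y had 10 and 5 UMIs in all and Hba-x 1 and 23.

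The share of Hbb-bt in adult beta UMIs was larger in the embryonic barcodes taken as a sum. At 10% globin or more, Hbb-bt gave 59.6% (57.7 to 61.5) of the adult beta UMIs in the embryonic barcodes of the f/f-labelled library and 30.4% in the adult ones, and 59.0% (57.3 to 60.7) and 28.4% in those of the f/w-labelled library. By barcode, the share ran from 26.1% to 76.9% with a median of 58.3% in the 11 embryonic barcodes of the f/f-labelled library, and from 20.0% to 89.1% with a median of 60.0% in the 11 of the f/w-labelled one. In adult barcodes it ran from 2.09% to 41.3% (median 30.2%) and from 3.98% to 41.9% (median 28.0%). Hbb-bt was above Hbb-bs in 6 of 11 and 7 of 11 embryonic barcodes and in 0 of 151 and 0 of 187 adult ones. The ranges of embryonic and adult barcodes overlap, and how reads were split between Hbb-bs and Hbb-bt was not examined. At 30% globin or more the median share in embryonic barcodes was 39.1% in the f/f-labelled library, where Hbb-bt was above Hbb-bs in 3 of 8, and 80.2% in the f/w-labelled one, where it was so in 4 of 4. Among the adult barcodes, 14 and 30 had an Hbb-bt share under 20%.

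Hba-a2 gave a smaller part of adult alpha UMIs in the embryonic barcodes. The median share was 36.0% and 32.4% there against 45.1% and 43.9% in adult barcodes, with ranges of 25.3% to 41.5% and 23.5% to 47.6% against 39.5% to 49.3% and 34.0% to 52.2%. Hba-a1 was above Hba-a2 in all 11 and 11 embryonic barcodes and in 151 of 151 and 185 of 187 adult ones. Zeta gave 4.18% to 74.9% of alpha-type UMIs in the embryonic barcodes (median 32.2%) and 12.4% to 70.6% (median 41.7%). Alpha-type genes together gave a median of 41.1% and 42.8% of globin UMIs in embryonic and 31.4% and 30.3% in adult barcodes. The near-identity of Hba-a1 and Hba-a2 limits what their split means in either group.

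**Figure D3:**
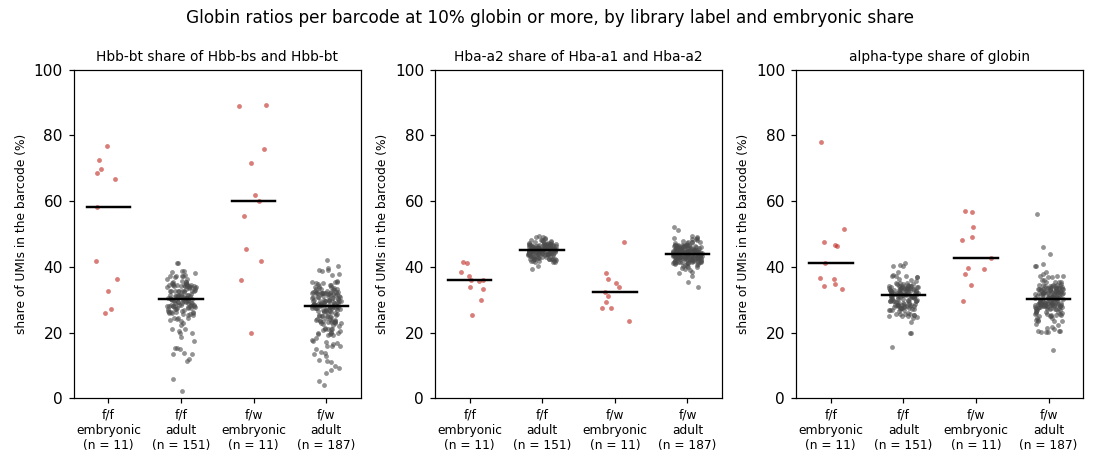
Share of Hbb-bt in adult beta UMIs, of Hba-a2 in adult alpha UMIs and of alpha-type genes in globin UMIs (percent, vertical axes), 1 point per barcode at 10% globin or more, for embryonic and adult barcodes of each library, with the median as a line. Embryonic barcodes have the higher median Hbb-bt share (58.3% against 30.2% and 60.0% against 28.0%) and the lower median Hba-a2 share.

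Alas2 followed the globins closely. Of its UMIs, 82.9% and 81.7% lay in the red cell barcodes, where it was found in 126 of 142 and 142 of 162, with at most 18 and 25 UMIs in 1 barcode. There it stood at 2699 and 2472 CPM of non-globin UMIs, against 0.169 and 0.209 CPM below 1% globin, a log2 ratio of 13.96 and 13.53. Set against globin, it had 6.76 (6.27 to 7.27) and 7.12 (6.68 to 7.59) UMIs per 10000 globin UMIs. Between 10 and 30% globin the ratio was 10.5 (8.69 to 12.7) and 8.75 (7.44 to 10.2), and below 1% it was 14.0 (9.13 to 20.5) and 14.8 (9.70 to 21.8), on 26 UMIs in each library. Between 1 and 10% it was 7.62 (3.81 to 13.6) and 7.54 (5.08 to 10.8), intervals that overlap those of the red cell barcodes. Within these, barcodes of 1000 genes or more had 8.41 (6.79 to 10.3) and 8.41 (7.18 to 9.79). Those with fewer genes had 6.56 (6.06 to 7.10) and 6.90 (6.42 to 7.40), and the intervals overlap in each library.

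Embryonic barcodes held less Alas2 for their globin than adult ones in the f/f-labelled library, and in the f/w-labelled one the 2 could not be told apart. At 10% globin or more they had 2.68 (1.34 to 4.80; 11 UMIs) Alas2 UMIs per 10000 globin UMIs against 7.26 (6.77 to 7.77). In the f/w-labelled library they had 9.18 (6.43 to 12.7; 36 UMIs) against 7.26 (6.84 to 7.71). Alas2 was at 0 in 6 of 11 and 2 of 11 embryonic barcodes. The difference between the libraries was not tested, and the f/w-labelled embryonic barcodes were the ones richer in genes.

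Genes of the red cell outside the members were read from 7 lists, by their level among non-globin UMIs in red cell barcodes over barcodes below 1% globin. Of the 57 listed genes with at least 200 UMIs, 31 and 28 were past 2-fold higher and 3 and 1 past 2-fold lower. A gene was called higher only with more than 3 UMIs in the red cell barcodes, and a count under 3 was set to 3 for the calls. Over all 14549 genes tested, 2.83% and 3.23% were past 2-fold higher and 6.19% and 7.53% past 2-fold lower, with a median log2 ratio of -0.61 and -0.49. As many as 26 listed genes were higher in both libraries. Of the 57, 2 reached 200 UMIs only through the red cell barcodes, Tspo2 among them, and had to be higher there. Without barcodes of 1000 genes or more in the top bin, 31 and 26 were past 2-fold higher.

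Late erythroid genes, active as the red cell clears its contents, stood highest. Of 10 measured, 9 and 8 were past 2-fold higher, with a median log2 ratio of 5.66 and 4.82. Mkrn1, a ubiquitin ligase gene, had 3147 and 2493 CPM (log2 ratio 6.33 and 5.29), and Bnip3l, needed to clear mitochondria, 1243 and 1304 CPM (3.44 and 3.02). Of the iron and oxygen handling genes, 8 of 11 were higher in each library. Ftl1 and Fth1, the ferritin chains that store iron, had 17926 and 14142 CPM and 16041 and 11822 CPM, and Prdx2, which removes peroxide, had 5562 and 4146 CPM. Tfrc, the transferrin receptor that brings iron into the growing red cell, was past 2-fold lower in the f/f-labelled library, at a log2 ratio of -1.01 on 5 UMIs, and at 0.23 on 15 UMIs in the other.

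The other haem synthesis genes followed Alas2 at a distance, with 8 and 6 of 11 higher and a median log2 ratio of 1.97 and 1.29. Slc25a37, the importer of iron into mitochondria, had a log2 ratio of 6.68 and 5.89, Fech, which inserts iron into haem, 5.45 and 5.25, and Urod, an earlier step, 2.83 and 2.84. Cpox, a late step, was at 1.45 and -1.04, on 16 and 4 UMIs. Of the membrane and cytoskeleton genes, 4 and 4 of 9 were higher, with Epb41, a linker of the membrane skeleton, at 3.70 and 3.34. Slc4a1 was outside this count, with 195 UMIs in all, and had a log2 ratio of 11.67 and 10.17.

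Of the 9 factors with at least 200 UMIs, 2 were past 2-fold higher in each library, Lmo2 (2.70 and 1.33) and Zfpm1 (2.58 and 1.50), both cofactors of Gata proteins, and Zbtb7a, a repressor of globin genes, was at -0.25 and -0.90. Tal1 was at 4.41 and 1.31, on 3 and 2 UMIs, too few to be called. Klf1 and Nfe2 were outside the count, with 128 and 51 UMIs in all, and Nfe2 was at 5.26 and 4.43 on 1 and 2 UMIs. Gata1, Myb and Ikzf1 had 0 UMIs in red cell barcodes of either library, and the upper limits of their log2 ratios were above 0 in both. Of the 6 cell cycle genes 0 were higher, and Top2a, a topoisomerase of dividing cells, was at -1.11 and -0.55 on 39 and 43 UMIs, Mki67 at -0.79 and -0.55, and Pcna at -0.22 and 0.07. The ratios of factors and cell cycle genes include barcodes of 1000 genes or more, most of which had markers of another cell type. These barcodes held 65 and 122 of the cell cycle UMIs, and the rest of the bin held 56 and 25. Among other globin-like genes, Hbq1a and Hbq1b, a pair of theta-like genes of the alpha cluster, had 24 and 14 and 6 and 4 UMIs in red cell barcodes of 52 and 18 UMIs in all, too few for the count and not safely told apart. Cygb had 1 and 3 UMIs and Mb 1 and 1 in these barcodes, and Ngb and Hbb-bh2 had 0.

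Genes most like the members were ranked by the share of their UMIs in red cell barcodes of both libraries, among genes with at least 200 UMIs. These 304 barcodes were 1.09% of all and held 0.232% of the non-globin UMIs, and the median of 14548 genes was 0.170%. The members stood at 36.2% (Hbb-bh1), 52.1% (Hba-x), 63.6% (Hbb-y), 82.2% (Alas2) and 86.3% to 88.1% (the 4 adult globins). These barcodes were picked by their globin content, so the high globin shares are no result. Of the members, only Alas2 lies outside that rule. Tspo2, a translocator protein gene of red cells, stood at 86.1%, with 272 of its 316 UMIs there, so it reached the minimum only through these barcodes. Rec114 (44.4%), Ube2l6 (34.3%), Bpgm (22.3%), Fam210b (19.8%), Rhd (16.6%) and Fam220a (15.3%) had lower shares.

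Embryonic and adult red cell barcodes also differed in these genes, by counts from few barcodes. To set aside barcodes rich in genes, only those under 1000 genes at 30% globin or more were compared, 8 and 3 embryonic with 118 and 137 adult, as CPM of non-globin UMIs. Late erythroid genes summed to 1878 (1130 to 2932) in embryonic and 17587 in adult barcodes of the f/f-labelled library, and to 4537 (2731 to 7085) and 19481 in the f/w-labelled one. Haem synthesis genes summed to 296 (61.1 to 866) and 4199, and to 955 (260 to 2445) and 4068. Alas2 was at 692 (278 to 1425) and 5484 (5061 to 5932), and at 2388 (1145 to 4391) and 7033 (6548 to 7545). On this scale all 3 were lower in embryonic barcodes in both libraries, by more than the counting intervals. The scale itself differs between the groups. At 30% globin or more and any number of genes, the median globin share was 75.4% and 52.6% in embryonic barcodes and 89.1% and 90.8% in adult ones. Embryonic barcodes thus had more non-globin UMIs for their globin, which lowers these CPM. The late erythroid and haem synthesis sums were not set against globin, so no lower level per globin UMI is shown for them. Of the 10 Alas2 UMIs in the embryonic barcodes of the f/w-labelled library 7 came from 1 barcode, and without the highest barcode Alas2 stood at 260 (31.5 to 939) and 1057 (218 to 3090). Per globin UMI, and over the wider set of 11 f/w-labelled embryonic barcodes at 10% globin or more given above, Alas2 was not lower.

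The other lists did not differ past the counting intervals in the same direction in both libraries. Membrane and cytoskeleton genes were at 1581 (904 to 2568) in embryonic and 4190 in adult barcodes of the f/f-labelled library, but at 6208 (4055 to 9096) and 4393 in those of the f/w-labelled one. Iron and oxygen handling genes were at 90622 and 94296, and at 54441 and 95806. Transcription factors were at 296 and 238, and at 478 and 244, on 2 to 27 UMIs. The embryonic values rest on 10119 and 4188 non-globin UMIs in all.

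**Figure D4:**
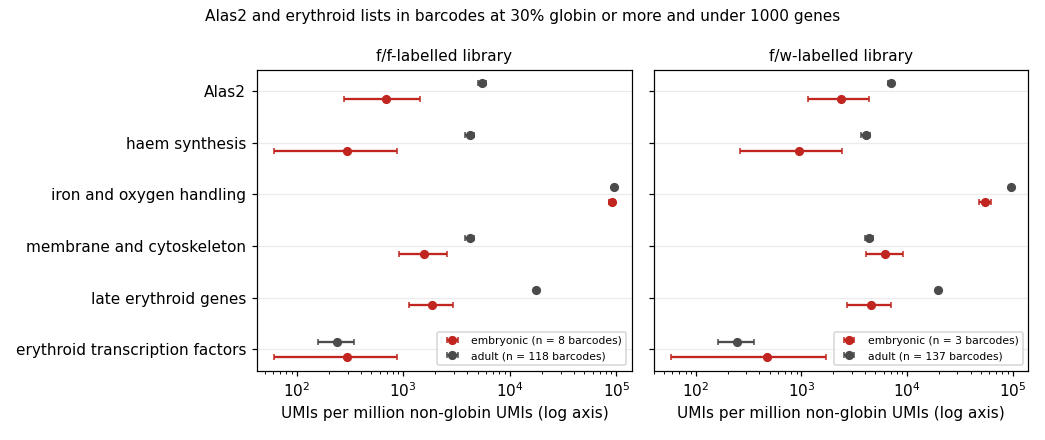
Summed level of Alas2 and of the gene lists (CPM of non-globin UMIs, log axis) in embryonic and adult barcodes at 30% globin or more with under 1000 genes, 1 panel per library, with 95% exact Poisson intervals as bars. On this scale Alas2, haem synthesis and late erythroid genes lie lower in the embryonic barcodes of both libraries, while per 10000 globin UMIs Alas2 does not in the f/w-labelled one (9.18 against 7.26 at 10% globin or more). The lists were not set against globin, and embryonic barcodes had more non-globin UMIs for their globin.

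Endothelial barcodes, those with 3 or more UMIs of Pecam1, Kdr and Cdh5, held more globin than others below 10% globin. The call was checked on Cldn5, a junction gene of endothelium, at 923 CPM against 2.09 in other barcodes of the f/f-labelled library and 741 against 5.61 in the f/w-labelled one. The 469 and 1153 endothelial barcodes had 1762 (1732 to 1791) and 1657 (1640 to 1674) globin CPM, and the others had 131 and 187, a log2 ratio of 3.75 and 3.15. Hbb-bs was at 920 CPM in them against 58.0 in others and Hba-a1 at 250 against 22.0 in the f/f-labelled library. Alas2 was at 1.40 against 0.178 CPM there, on 11 UMIs.

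Most of that excess came from 3 and 19 barcodes between 1 and 10% globin. In the 466 and 1134 endothelial barcodes below 1%, globin stood at 147 (139 to 156) and 150 (145 to 155) CPM, against 119 and 138. The log2 ratio was 0.30 and 0.12. The median barcode was at 96.9 against 92.1 CPM and at 102.9 against 107.5. Without the 2 f/f-labelled endothelial barcodes with the most embryonic UMIs, left out of that group only, its level was 119 CPM. Over all barcodes below 1%, Hbb-bs was at 54.2 CPM in either group of the f/f-labelled library, and Hba-a1 at 24.2 against 19.9. In the f/w-labelled library Hbb-bs was still higher in endothelial barcodes, at 75.8 against 67.2 CPM (log2 ratio 0.17, 0.10 to 0.25). Hba-a1 was at 20.9 CPM in either group there. Barcodes at 1 to 30% globin were 2.29% (1.15 to 4.06) of the endothelial and 0.108% of the other barcodes in the f/f-labelled library, and 3.95% (2.92 to 5.22) and 0.141% in the f/w-labelled one. Of the 27 and 63 barcodes of those bins, 11 (40.7%) and 47 (74.6%) had endothelial markers. Markers of mast cells or megakaryocytes stood beside them in 5 of the 11 and 21 of the 47, and 7 of the 47 and 0 of the 11 were embryonic. These barcodes had a median of 36929 and 30498 UMIs, and the part of doublets in them was not tested.

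In endothelial barcodes below 1% globin, 2 barcodes held most of the embryonic globin of the f/f-labelled library but not of the f/w-labelled one. In the f/f-labelled library 190 of the 1135 globin UMIs of endothelial barcodes were embryonic. This was 16.7% (14.6 to 19.0), against 2.39% in other barcodes, with Hbb-y at 21.2 CPM against 2.40. Without 1 barcode with 100 Hbb-y UMIs, at 0.953% globin, the share was 7.35%, and without a further one with 40 it was 2.53% (1.61 to 3.78). In the f/w-labelled library it was 3.74%, 2.61% without the highest barcode and 2.34% without the highest 2. There 77 of the 126 embryonic UMIs remained without those 2, and Hbb-y was found in 49 endothelial barcodes. The barcodes left out had the most embryonic UMIs and came from the endothelial group only. The lower shares without them therefore do not show that endothelial and other barcodes were alike.

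Of 10 marker-defined groups, 3 were 2-fold or more above other barcodes in globin below 10% globin, the endothelial, mast and megakaryocyte groups in both libraries, and 0 were so below 1%. A few barcodes between 1 and 10% globin carried these values. The groups shared part of these barcodes. At 1 to 30% globin, 5 and 21 barcodes with mast or megakaryocyte markers also had endothelial markers, and 0 and 1 did not. The endothelial group held 11 and 47 barcodes there. The mast and megakaryocyte values are therefore not separate from the endothelial one, which also rests on barcodes without their markers. In the f/f-labelled library 1 barcode, at 9.35% globin, had markers of megakaryocytes, mast cells and endothelium. It gave 7309 of the 7383 globin UMIs of the megakaryocyte group and 7309 of the 7875 of the mast group. The f/w-labelled mast and endothelial groups also shared their highest barcode, at 9.88% globin. In the f/w-labelled library 1 barcode gave 5458 of the 5584 of the megakaryocyte group, 7 gave 22845 of the 25468 of the mast group, and 1 gave 2893 of the 3337 of the Schwann group. Below 1%, group levels ran from 91.2 to 167 CPM in the f/f-labelled and from 91.8 to 161 CPM in the f/w-labelled library. The share of mast barcodes at 1 to 30% globin was 2.40% and 2.84%, and that of myogenic barcodes was 0.162% in the f/f-labelled library and 0 of 134 in the f/w-labelled one, which allows up to 2.24% (3 counts of the total). Endothelial barcodes with 3 or more UMIs of the lymphatic genes Prox1, Lyve1 and Flt4 were taken as lymphatic. Below 1% globin, these had 112 (101 to 123) and 109 (104 to 115) globin CPM. The other endothelial barcodes had 184 (171 to 198) and 214 (205 to 224). The lymphatic ones were deeper, at a median of 15043.5 and 17216.5 UMIs against 11478.5 and 13910.5. Globin CPM below 1% was lower in deeper barcodes, as given below, and the part of depth in this contrast was not tested. Lymphatic barcodes were at 1% globin or more in 4 of 216 and 24 of 680 cases, and other endothelial ones in 11 of 265 and 32 of 510.

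**Figure D5:**
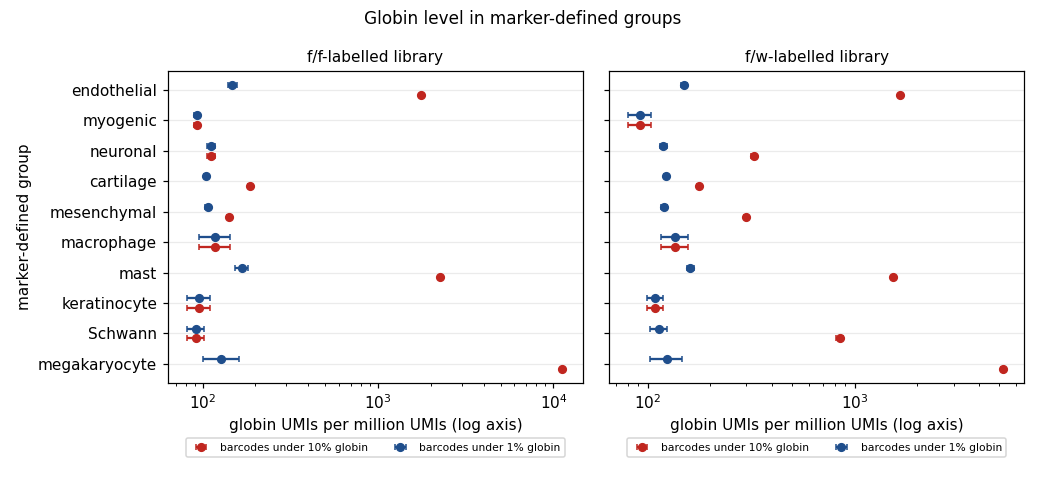
Globin CPM (log axis) in barcodes of the 10 marker-defined groups, below 10% and below 1% globin, 1 panel per library, with 95% exact Poisson intervals. Endothelial, mast and megakaryocyte barcodes lie highest below 10%, followed in the f/w-labelled library by the Schwann group at 844 CPM. That Schwann value and the megakaryocyte values rest on 1 barcode each. The f/f-labelled mast value rests on the same barcode as the f/f-labelled megakaryocyte value, and that barcode also had endothelial markers. All groups lie between 91.2 and 167 CPM below 1%.

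Globin RNA was found at a low level in most barcodes. Any globin UMI was seen in 65.0% and 66.7% of all barcodes, and in 21.9% and 25.7% of those thinned to 2000 UMIs (12533 and 10078 barcodes deep enough). Hbb-bs alone was seen in 40.8% and 45.1%, Hbb-bt in 19.9% and 21.2%, Hbb-y in 2.40% and 2.95%, Alas2 in 1.11% and 1.66%, and Hba-x in 0.524% and 1.07%. Below 1% globin, barcodes of under 1000 UMIs had 0.747 and 0.601 globin UMIs each, those of 1000 to 5000 UMIs 0.707 and 0.705, and those of 5000 UMIs or more 1.42 and 1.78. In CPM this is 1196 and 1115 in the shallowest barcodes and 107 and 127 in the deepest. Myogenic barcodes had a globin UMI in 74.3% of cases in the f/f-labelled library at a median of 14904 UMIs, and endothelial ones below 1% in 75.1% at a median of 12808. Shares of this kind are not read as expression, and the source of these UMIs was not tested.

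The makeup of this low-level globin differed from that of the red cell barcodes. Embryonic genes gave 3.27% (3.02 to 3.53) and 3.03% (2.78 to 3.30) of it. The top bin had 2.12% and 0.783%, and the whole libraries had 2.29% and 1.70%. In barcodes below 1% without endothelial markers the share was 2.39% (2.17 to 2.63) and 2.86% (2.60 to 3.15). The first of these intervals takes in the 2.29% of its library. The f/f-labelled value of 3.27% thus rests in part on the 2 endothelial barcodes left out above. Hba-a2 gave 50.3% and 49.8% of adult alpha UMIs below 1% globin, against 44.8% and 43.9% in red cell barcodes. Alas2 was higher per globin UMI than in red cell barcodes, as given above.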

How the data were processed

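Single cell RNA-seq was done by the authors on tdTomato+ cells with Chromium 3′ v3.1 chemistry. The deposited values are raw UMI counts per gene and barcode in 1 matrix of 27766 barcodes and 32285 genes. The matrix header names Cell Ranger 5.0.0, the submitters' processing notes name Cell Ranger 3.1.0, STAR, Seurat 3.1.1 and mm10, and the authors down-sampled reads when joining the libraries, so library depths are not independent. The deposited matrix holds all called barcodes, before the authors' own filter, and no file with cell types was used. Barcodes were assigned to libraries by their suffix, whose number of barcodes equals the cell count of 1 run summary.

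UMI counts were summed with Python 3.11.15, NumPy 2.4.6, SciPy 1.17.1 and pandas 2.3.3, and sequences were aligned with Biopython 1.88. Sums had exact Poisson, shares exact Clopper-Pearson and ratios exact binomial 95% intervals. Calls of 2-fold used genes with at least 200 UMIs. The scripts were tested on simulated data. No doublet caller was run. Members and lists were chosen with earlier results of these data known. Genes were named as the 8 members, the 3 genes of each list with the most UMIs in red cell barcodes and any at 0, and the 10 genes with the largest share of their UMIs there. Some genes that this rule takes are not reported here. Cpox, Tfrc, Tal1 and Nfe2 were named in addition after their values were seen. Of the 78 listed symbols, 75 were matched, and Ahsp, Fam46c and Hbb-bh0 were not analysed here. Alternatives covered a filter rebuilt from the authors' description (12523 and 10345 barcodes kept), the denominator, the globin limits, the marker minimum and depth. The rebuilt filter used a log scale within each library, which the authors do not state, and it does not keep the same number of barcodes as theirs. Leaving out shared barcode sequences, gene-rich barcodes or the highest barcode of a gene, and the marker groups below 1% globin, were alternatives chosen after seeing the data.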

Additional observations from a re-analysis of the deposited data

How the results depend on the processing

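No paired analysis was possible because each label has 1 library and no comparison rests on a test. Of the values that answer a comparison, 41 stayed within their interval or 1.5 times the count under an alternative and 53 moved, and 0 reversed. Only log2 ratios could be called reversed, and among these values only the endothelial ratio was one. Among single genes, 12 ratios stayed, 19 moved and 1 reversed, Hbb-y, to 0.35 without the highest barcode of the f/w-labelled library. Values are in the order f/f-labelled, f/w-labelled. With the rebuilt filter on UMIs, genes and mitochondrial UMIs, the globin share of all UMIs was 0.584% and 0.961%. The share of barcodes at 30% globin or more was 0.719% and 0.938%. The embryonic share of globin UMIs in them was 1.83% and 1.11%, and that of beta-type UMIs 2.14% and 1.24%. The f/w-labelled zeta share was then 0.806% and Alas2 stood at 7.89 per 10000 globin UMIs there, the f/f-labelled alpha-type share was 32.2% with 5 embryonic barcodes, and the endothelial log2 ratio was 2.79 and 3.29. The globin share was 0.814% and 1.29% over UMIs other than globin and mitochondrial ones, and 0.778% and 1.22% without barcode sequences found in both libraries. With 20% globin as the limit, the embryonic share of globin was 2.01% and 1.01%, of beta-type UMIs 2.43% and 1.15%, zeta 1.11% and 0.695%, and alpha-type 31.7% and 30.8%. With 50% these were 2.23% and 0.358%, 2.77% and 0.374%, 1.11% and 0.320%, and 32.1% and 31.2%, with 2 embryonic barcodes in the f/w-labelled library. Without barcodes of 1000 genes or more they were 2.37% and 0.428%, 2.89% and 0.438%, 1.28% and 0.406%, and 32.2% and 31.2%. The endothelial log2 ratio was 3.52 and 3.19 with 2 marker UMIs as the minimum, 3.96 and 3.25 with 5, 2.41 and 2.59 at 2000 UMIs per barcode, and 0.30 and 0.12 below 1% globin, where 0 and 0 marker groups were 2-fold above the rest. The cause of these shifts was not tested. Depth limits the embryonic barcodes, where Alas2 rests on 11 and 36 UMIs, and Hbb-bh1 on 63 and 324 in all.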
